A study of Mus musculus with 9 samples.

Results

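Interferon-stimulated genes are the genes that cells transcribe more strongly when a type I interferon binds its receptor. The set described here holds 34 of them out of 43629 genes in the deposited table, and was drawn up by gene name as type I interferon-induced genes, without a measured value in the rule. All 34 matched an Ensembl gene in the table and all 34 passed the filter on low values (3 or more libraries with a value of 10 or higher), as did 15997 genes of the table.

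Bone marrow cells positively selected for CD117 (c-KIT, the receptor for stem cell factor on blood-forming stem and progenitor cells) gave RNA-seq libraries in 3 groups, with 3 libraries in each. All mice, wild type included, had been treated with pIpC, a synthetic double-stranded RNA that itself induces type I interferon. The dose and the time from treatment to collection are not given in the sources used here. The WT group is labelled wild type, and its label names no other allele. The KI group carried Mx1-Cre, a Cre recombinase driven by the promoter of the interferon-stimulated gene Mx1, and Cbfb+/56M, an allele that yields the CBFB-MYH11 fusion of acute myeloid leukaemia. The KI_Chd7del group carried Mx1-Cre and Cbfb+/56M and in addition Chd7f/f, a pair of floxed alleles of the chromatin remodeller gene Chd7. The strain is given as C57BL/6 for all groups, and ages are not stated. Because Mx1-Cre and Cbfb+/56M occur together and not in WT, effects of the transgene and of the fusion cannot be told apart in KI against WT. Nothing in the labels ties each library to its own mouse, and the p-values therefore reflect only how far these samples spread, which may be technical.

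The values are read numbers per gene that had been scaled by library and rounded, and are called normalised values below. Library totals were 43.2 to 46.2 M (WT), 37.7 to 39.0 M (KI) and 37.5 to 38.1 M (KI_Chd7del), and 20329 to 21964 genes were above 0 in a library. Kit, the gene of the selected receptor, had 7354 to 7797 in WT libraries, 3226 to 3868 in KI libraries and 6131 to 8508 in KI_Chd7del libraries. Chd7 had 3471, 3745 and 3982 in the WT libraries, 1979, 2934 and 2009 in the KI libraries, and 1862, 1794 and 1921 in the KI_Chd7del libraries. The difference in Chd7 between KI_Chd7del and KI did not pass the test (log2 difference -0.29, SE 0.14, adjusted p = 0.121), and a value over the whole gene does not show whether a floxed exon was lost. Myh11, the fusion partner, had 5 to 9 in WT libraries, 176 to 219 in KI libraries and 164 to 187 in KI_Chd7del libraries.

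Type I interferons bind a receptor made of IFNAR1 and IFNAR2, whose kinases TYK2 and JAK1 phosphorylate STAT proteins, STAT2 among them. STAT2 and IRF9 are parts of the complex ISGF3, which binds the interferon-stimulated response element in the promoters of its target genes. The products of these genes sense viral nucleic acid, block viral replication, tag proteins with the ubiquitin-like protein ISG15, and feed back on the signal. In bone marrow, type I interferon is known to draw haematopoietic stem cells into cycle, and pIpC is the usual agent for switching on Mx1-Cre.

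The response element is a repeat of GAAA spaced by a pair of bases. Promoter windows that reach from 250 bases before the transcription start to 50 bases after it were found in RefSeq (GRCm38.p6) for 24 of the 34 genes. None was found for Mx1, Mx2, Zbp1, Usp18, Parp9, Parp14, Dhx58, Oas2, Rtp4 or Ifi27l2a, which the counts of motifs therefore leave out. The motif counts of the set are by gene, and the 24 genes had 25 windows. GAAA followed by any 2 bases and a further GAAA lay on either strand of 14 of these 24 promoters (58.3%), against 3.44% of all 32851 windows in that table. The longer motif of AGTTTC, any 2 bases and TTTC, which contains the reverse complement of the shorter motif, lay on either strand in 8 of 24 (33.3%, against 0.271% of all windows). TTCNNNGAA, the letters bound by STAT dimers, lay in 6 of 24 (25%, against 8.3%), and reads as the same pattern on both strands. A match is a description of the letters and not evidence of binding. The stretches of 8 promoters around their matches, all upstream of the start and written 5′ to 3′ on the strand of the gene, are given because these genes carry the patterns below, and capitals mark the shorter motif or its reverse complement, TTTC, any 2 bases and TTTC. They come from chr4:156200850-156200921 (minus strand) for Isg15, chr19:34640760-34640838 (plus) for Ifit1, chr19:34583348-34583441 (plus) for Ifit3, chr19:34607744-34607837 (plus) for Ifit3b, chr5:120907526-120907570 (minus) for Oas1a, chr5:120887614-120887656 (minus) for Oas1g, chr12:26456538-26456597 (minus) for Rsad2 and chr8:71537562-71537627 (minus) for Bst2.
Isg15: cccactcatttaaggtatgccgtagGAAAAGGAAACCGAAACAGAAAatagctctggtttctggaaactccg
Ifit1: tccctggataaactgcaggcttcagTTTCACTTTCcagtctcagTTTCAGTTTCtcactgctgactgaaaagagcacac
Ifit3: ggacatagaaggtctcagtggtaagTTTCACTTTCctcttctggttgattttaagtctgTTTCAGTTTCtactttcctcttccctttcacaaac
Ifit3b: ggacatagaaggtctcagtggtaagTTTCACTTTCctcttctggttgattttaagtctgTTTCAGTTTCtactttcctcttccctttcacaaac
Oas1a: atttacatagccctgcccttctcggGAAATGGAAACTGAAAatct
Oas1g: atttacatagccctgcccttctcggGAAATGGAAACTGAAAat
Rsad2: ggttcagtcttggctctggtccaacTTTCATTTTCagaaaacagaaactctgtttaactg
Bst2: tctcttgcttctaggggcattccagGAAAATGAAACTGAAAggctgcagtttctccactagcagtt

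Isg15 holds 3 overlapping matches in a row, and Oas1a, Oas1g and Bst2 hold 2 that overlap. In Ifit1 the 2 matches start 19 bases apart. The printed stretches of Ifit3 and Ifit3b are identical at 94 of 94 positions, with matches that start 34 bases apart in both.

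The 34 genes did not move as a block between the groups. In KI against WT, 8 rose and 2 fell at an adjusted p under 0.05 (29.4% of the 34), where 58.9% of all tested genes were called (31.8% higher and 27.2% lower). In KI_Chd7del against KI, 3 rose and 1 fell (11.8%), where 40.4% of all tested genes were called (17.5% higher and 22.9% lower). In this fit, in which the 3 groups share an estimate of the spread, the share called was below that of the table in both comparisons. With only the WT and KI libraries fitted it was above it in KI against WT, at 23 of the 34 (67.6%) against 60.1% of tested genes. Within KI_Chd7del, the 3 libraries differed from each other in these genes by far more than in most genes: in each of the 34, library 3 was the highest and library 1 the lowest of that group.

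**Figure D1:**
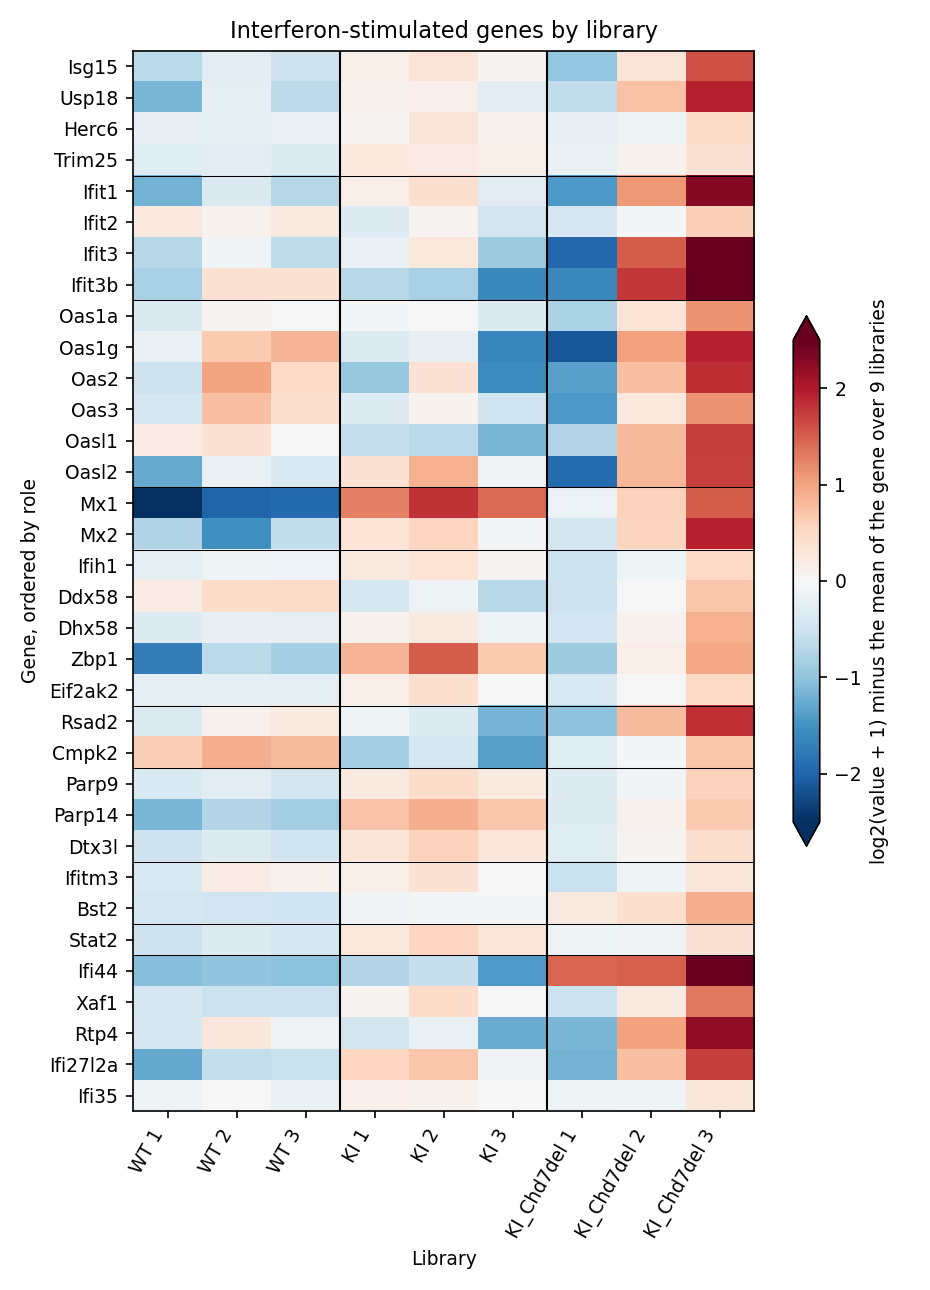
Each row is 1 of the 34 genes, ordered by role, and each column 1 library; the colour gives log2(value + 1) minus the mean of the gene over the 9 libraries, with values past either end of the scale in the end colour. In KI_Chd7del the column of library 1 is mostly blue and that of library 3 red, while Ifi44 is red in all 3 libraries and Mx1 is deep blue in the 3 WT libraries.

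The standard errors of these genes were large. The median SE of their log2 differences was 0.37, against 0.13 over all tested genes. At an unadjusted p under 0.05, 11 of the 34 passed in KI against WT (32.4%, against 63.3% of tested genes) and 8 in KI_Chd7del against KI (23.5%, against 49.9%). The groups KI and WT did not overlap in 24 of the 34 genes (70.6%, with 19 higher in KI and 5 lower), where 67.6% of tested genes did not overlap (35.9% higher and 31.8% lower). KI_Chd7del and KI did not overlap in 4 (11.8%), the same 4 that passed the test, where 52% of tested genes did not overlap. The median log2 difference of the 34 was 0.36 in KI against WT, with 23 above 0, and 0.19 in KI_Chd7del against KI, with 21 above 0. Over all tested genes these medians were 0.02 and -0.01. Both comparisons use the same KI libraries.

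The counts of called genes depended on which libraries set the spread. With only the WT and KI libraries in the fit, 19 of the 34 were higher in KI (55.9%, against 32.3% of tested genes) and 4 lower (11.8%, against 27.8%). With only the KI_Chd7del and KI libraries in the fit, 3 of the 34 were higher and 0 lower (8.82%), where 34.5% of tested genes were called. Leaving out KI_Chd7del library 1 or library 3 gave 13 higher and 4 lower in KI against WT (50%), where 61.7% and 58.2% of tested genes were called. Scaling every library to the same total gave 13 higher and 1 lower (41.2%, against 60.7%), moved the median of all tested genes in KI against WT to 0.25, and put 7197 of 9703 called genes on the higher side, against 5084 of 9429 as deposited.

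Mx1 and its neighbour Mx2 (chromosome 16, 97447035 to 97462907 and 97535308 to 97560900, GRCm38) belong to the MX family of dynamin-like GTPase genes. Working MX proteins block viral replication, and whether these mice make them was not tested. Mx1 is the gene whose promoter drives Cre here. Mx1 had 43, 61 and 63 in the WT libraries, 588, 860 and 662 in the KI libraries, and 222, 367 and 706 in the KI_Chd7del libraries. All 3 WT libraries were far below the other 6. Mx1 rose 12.4-fold in KI against WT, the largest rise among the 34 in that comparison (log2 difference 3.64, SE 0.37, adjusted p = 3.16e-05). Libraries 1 and 2 of KI_Chd7del were below the lowest KI library for Mx1, but library 3 lay within the KI range, and the difference from KI of -0.84 did not pass (SE 0.37, adjusted p = 0.0949). Without KI_Chd7del library 3 it did (-1.28, adjusted p = 0.00991). Mx2 had 30, 17 and 33 in the WT libraries, 65, 74 and 50 in the KI libraries, and 37, 75 and 198 in the KI_Chd7del libraries. The KI libraries lay above the WT libraries for Mx2, and the difference of 1.24 missed the threshold (SE 0.53, adjusted p = 0.0703). Mx2 passed there without KI_Chd7del library 1 (adjusted p = 0.0245) or library 3 (0.0150). Its difference between KI_Chd7del and KI was 0.40 (SE 0.53, adjusted p = 0.578). Per kilobase of exon, Mx2, Ifi44 and Mx1 were the lowest of the 34 in WT, at mean normalised values of 7.38, 9.95 and 14.7.

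**Figure D2:**
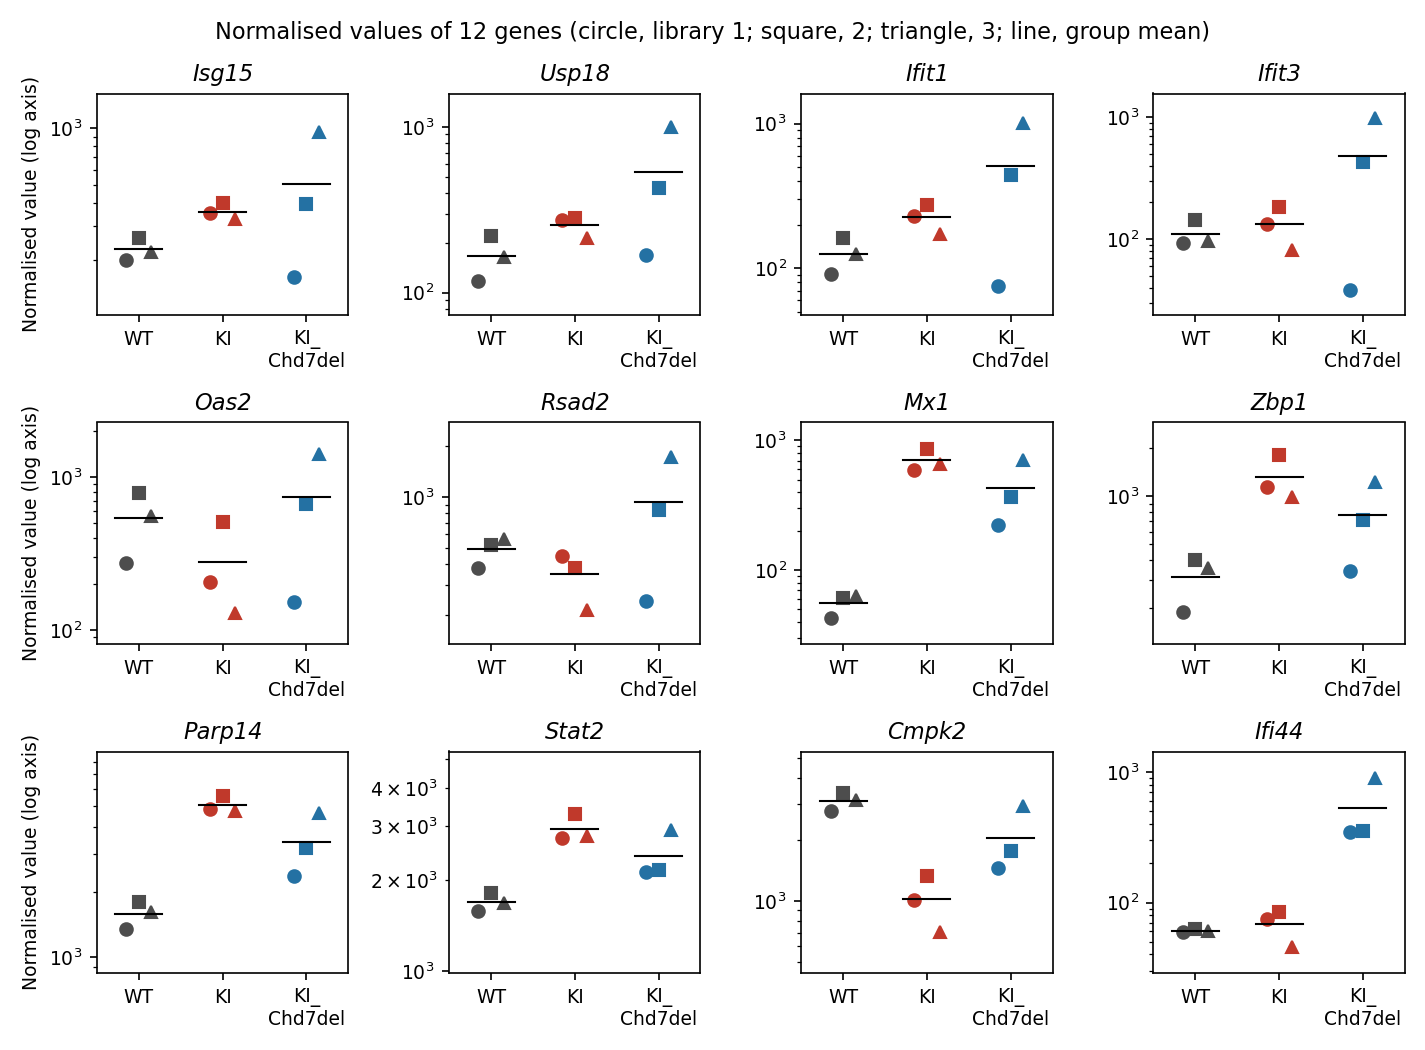
Normalised values of 12 of the genes in each library on a log axis, with a line at the group mean. Mx1, Zbp1, Parp14, Stat2, Isg15 and Ifit1 are higher in all KI than in all WT libraries, Cmpk2 is lower, and Ifi44 sets the 3 KI_Chd7del libraries apart. Isg15, Usp18, Ifit1, Ifit3, Oas2 and Rsad2 spread widely within KI_Chd7del.

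The genes of the ADP-ribosyltransferases PARP9 and PARP14 and of the ubiquitin ligase DTX3L, which pairs with PARP9, lie together on chromosome 16, and all 3 rose in KI. Parp14 (35832874 to 35871544) had 1347, 1792 and 1609 in the WT libraries, 4833, 5581 and 4746 in the KI libraries, and 2365, 3180 and 4640 in the KI_Chd7del libraries. The 3 groups were ordered WT, KI_Chd7del, KI, with no overlap. Parp14 rose 3.20-fold in KI against WT (log2 difference 1.68, SE 0.21, adjusted p = 0.000127) and was the only one of the 34 that fell in KI_Chd7del against KI (-0.62, SE 0.21, adjusted p = 0.0424). That fall did not pass without KI_Chd7del library 1 (-0.39, adjusted p = 0.103), nor without KI_Chd7del library 2, WT library 2 or 3, or any single KI library (adjusted p = 0.0533 to 0.110). Dtx3l (35926511 to 35939151) had 2085, 2369 and 2125 in the WT libraries, 3766, 4478 and 3723 in the KI libraries, and 2438, 3131 and 3945 in the KI_Chd7del libraries. It rose in KI against WT by 0.86 on the log2 scale (SE 0.15, adjusted p = 0.00111), with no overlap between the groups. Parp9 (35938470 to 35972605) had 1420, 1515 and 1353 in the WT libraries, 2172, 2558 and 2174 in the KI libraries, and 1488, 1752 and 2750 in the KI_Chd7del libraries, and rose in KI against WT by 0.68 (SE 0.19, adjusted p = 0.0122). The bodies of Dtx3l and Parp9 overlap by 682 bases on opposite strands. Whether reads were counted by strand is not given in the sources used here, so reads from the overlap may have counted for either gene.

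Stat2 (chromosome 10, 128270559 to 128292849) encodes the STAT protein that sets ISGF3 apart from other STAT complexes. It had 1577, 1812 and 1681 in the WT libraries, 2745, 3306 and 2791 in the KI libraries, and 2114, 2152 and 2913 in the KI_Chd7del libraries. Every KI and every KI_Chd7del library was above every WT library. Stat2 rose in KI against WT by 0.80 (SE 0.13, adjusted p = 0.000527), and its difference between KI_Chd7del and KI of -0.31 did not pass (SE 0.13, adjusted p = 0.0787). Without KI_Chd7del library 3 that difference passed (-0.46, adjusted p = 0.00869).

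Of the 5 sensors of foreign nucleic acid, Zbp1 rose and Ddx58 fell in KI against WT. Zbp1 (chromosome 2, 173206612 to 173218923), a sensor of Z-form nucleic acid that can trigger necroptosis, had 190, 399 and 354 in the WT libraries, 1138, 1810 and 992 in the KI libraries, and 340, 710 and 1235 in the KI_Chd7del libraries. Its KI libraries lay above all WT libraries, a 4.23-fold difference (log2 2.08, SE 0.46, adjusted p = 0.00357), while KI_Chd7del spanned from the WT range into the KI range. Ddx58 (chromosome 4, 40203773 to 40239828), which encodes the RNA sensor RIG-I, had 1936, 2343 and 2382 in the WT libraries, 1258, 1578 and 1053 in the KI libraries, and 1179, 1725 and 2761 in the KI_Chd7del libraries. It fell in KI against WT by 0.79 on the log2 scale (SE 0.27, adjusted p = 0.0315). The fall of Ddx58 did not pass when WT library 2, WT library 3, KI library 1 or KI library 3 was left out (adjusted p = 0.0744 to 0.103). With all libraries fitted, the other 3 did not pass in either comparison. In KI against WT, Eif2ak2 passed without KI_Chd7del library 1 (adjusted p = 0.0271) or library 3 (0.0167), and Ifih1 without library 3 (0.0224). Ifih1, the gene of the RNA sensor MDA5, ranged from 1302 to 1413 in WT and from 1600 to 1926 in KI, without overlap, and from 1048 to 2136 in KI_Chd7del. Eif2ak2, the gene of the double-stranded RNA-dependent kinase PKR, ranged from 2316 to 2343 in WT libraries, 2714 to 3603 in KI libraries and 2109 to 3889 in KI_Chd7del libraries. Dhx58, the gene of the RIG-I-like regulator LGP2, ranged from 672 to 729, from 778 to 983 and from 597 to 1554.

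Cmpk2 and Rsad2 are divergent neighbours on chromosome 12, 12751 bases apart, whose products act on nucleotides: CMPK2 phosphorylates them in mitochondria, and viperin, the product of Rsad2, makes a chain-terminating analogue. Cmpk2 (26469204 to 26479837) had 2776, 3379 and 3115 in the WT libraries, 1014, 1331 and 709 in the KI libraries, and 1460, 1766 and 2914 in the KI_Chd7del libraries. It was high in WT, low in KI and between these in KI_Chd7del, apart from library 3, which was within the WT range. Cmpk2 fell in KI against WT by 1.64 on the log2 scale (SE 0.27, adjusted p = 0.000677), the opposite direction to Mx1 and Parp14, and rose in KI_Chd7del against KI by 0.99 (SE 0.27, adjusted p = 0.0186). That rise did not pass without KI library 3 (0.75, adjusted p = 0.0608). Rsad2 (26442746 to 26456452) did not pass in either comparison and ranged from 380 to 565 in WT libraries, 215 to 448 in KI libraries and 241 to 1727 in KI_Chd7del libraries. Without KI_Chd7del library 1 it passed as higher in KI_Chd7del than in KI (adjusted p = 0.00673).

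Of the 2 genes of membrane proteins that restrict viruses, Bst2 rose in both comparisons and Ifitm3 in neither. Bst2 (chromosome 8, 71534255 to 71537456), the gene of tetherin, which holds budding virus at the cell surface, had 859, 834 and 823 in the WT libraries, 1117, 1136 and 1128 in the KI libraries, and 1361, 1546 and 2198 in the KI_Chd7del libraries. The 3 groups did not overlap for Bst2, and the libraries of WT and of KI lay close together. Bst2 rose in KI against WT by 0.43 (SE 0.15, adjusted p = 0.0303), a call that was lost when any single WT or KI library was left out (adjusted p = 0.0593 to 0.0769). It rose in KI_Chd7del against KI by 0.56 (SE 0.15, adjusted p = 0.0142), and by 0.36 without KI_Chd7del library 3 (adjusted p = 0.00789). Bst2 is also a marker of plasmacytoid dendritic cells. The list of 10 such markers, Bst2 included, summed to 3728 to 4143 in WT libraries, 5499 to 6044 in KI libraries and 5964 to 8236 in KI_Chd7del libraries. Of the 9 that were tested, 7 were higher in KI than in WT and 2, Ly6d and Spib, lower (-1.48 and -0.60), and 4 were higher and 0 lower in KI_Chd7del than in KI: Bst2, Cox6a2, Ly6d and Spib. Over all tested genes, 31.8% were higher and 27.2% lower in KI than in WT, and 17.5% higher and 22.9% lower in KI_Chd7del than in KI. Siglech, a marker more restricted to these cells, had 58 to 115 in WT, 303 to 364 in KI and 915, 374 and 338 in KI_Chd7del libraries 1 to 3, in the reverse order to Bst2 there. The part of these cells in the Bst2 values was not tested. Ifitm3, which blocks the fusion of viruses with endosomes, had the highest level of the 34 per kilobase of exon in each group, at means of 8391 in WT, 9559 in KI and 8033 in KI_Chd7del. Its groups overlapped in both comparisons, with normalised values from 3939 to 7355 over the 9 libraries.

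Ifi44 (chromosome 3, 151730922 to 151749960), an interferon-induced antiviral gene, had a pattern of its own among the 34. It had 59, 63 and 61 in the WT libraries, 75, 84 and 46 in the KI libraries, and 346, 352 and 900 in the KI_Chd7del libraries. WT and KI overlapped, and every KI_Chd7del library was at least 346, above the highest KI library at 84. Ifi44 rose 7.14-fold in KI_Chd7del against KI (log2 difference 2.84, SE 0.37, adjusted p = 0.000559), the largest difference of the 34 in that comparison. Without KI_Chd7del library 3 the difference was 2.38 (adjusted p = 0.000602). In KI_Chd7del library 1, which was below all 3 KI libraries in 24 of the 34 genes, Ifi44 was above all 3. The only other members above them there were Bst2 and Cmpk2.

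Isg15 encodes the ubiquitin-like protein that gives ISGylation its name, USP18 removes it and restrains signalling at IFNAR2, and HERC6 and TRIM25 act as ISG15 ligases. Isg15 (chromosome 4, 156199424 to 156200818) had 199, 261 and 220 in the WT libraries, 352, 399 and 328 in the KI libraries, and 162, 396 and 956 in the KI_Chd7del libraries. All KI libraries lay above all WT libraries, yet the difference of 0.67 did not pass (SE 0.50, adjusted p = 0.281); this SE is estimated over all 3 groups. The KI_Chd7del libraries ran from below WT to above KI, and differed from KI by 0.14 (SE 0.50, adjusted p = 0.845). Usp18 (chromosome 6, 121245906 to 121270917) had 117, 219 and 164 in the WT libraries, 276, 280 and 214 in the KI libraries, and 169, 430 and 993 in the KI_Chd7del libraries. KI exceeded WT by 0.66 (SE 0.53, adjusted p = 0.315) and KI_Chd7del exceeded KI by 0.71 (SE 0.53, adjusted p = 0.313), neither of which passed, with overlap in both. Trim25 (chromosome 11, 88999376 to 89020293) had 2807, 2832 and 2743 in the WT libraries, 4153, 3982 and 3898 in the KI libraries, and 3042, 3686 and 4433 in the KI_Chd7del libraries. It rose in KI against WT by 0.52 (SE 0.11, adjusted p = 0.00317), the only one of these 4 genes to pass with all libraries fitted. Herc6 ranged from 980 to 1019 in WT libraries, 1175 to 1430 in KI libraries and 993 to 1565 in KI_Chd7del libraries. Without KI_Chd7del library 3, Herc6 passed as higher in KI than in WT (adjusted p = 0.00689).

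With all libraries fitted, none of the 4 IFIT genes and none of the 6 OAS genes passed in either comparison. Of all tested genes, 58.9% were called in KI against WT and 40.4% in KI_Chd7del against KI. Some of these genes passed in KI against WT with a KI_Chd7del library left out. Without library 1, Oasl1 (adjusted p = 0.00896) and Oas1g (0.0487) were lower and Oasl2 higher (0.0383). Without library 3, Ifit2 (adjusted p = 0.0330) and Oasl1 (0.0401) were lower. IFIT proteins bind viral RNA ends, and the catalytically active OAS enzymes make the second messenger that activates RNase L. Ifit3 and Ifit3b (chromosome 19, 34583531 to 34588731 and 34607970 to 34613401) are near copies: 51.2% of the 50-base stretches of Ifit3 transcripts occur in another gene, and 45% of those of Ifit3b, mainly in each other. The same holds for Oas1a and Oas1g (chromosome 5, 120896256 to 120907521 and 120876142 to 120887613), with 57.6% and 45.7%. Reads from these stretches could be split between the copies, so the values of these 4 genes are uncertain. A smaller share of the stretches of Herc6 (12.5%), Rtp4 (11.6%), Ifitm3 (10%) and Ifit1 (7.13%) also occurs in another gene. In the remaining members it is at most 4.38% (Mx2).

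Ifit3 had 92, 143 and 97 in the WT libraries, 132, 182 and 81 in the KI libraries, and 38, 431 and 975 in the KI_Chd7del libraries. Its libraries in KI_Chd7del spanned 25.03-fold on the value + 1 scale, the widest span of the 34, from the lowest to the highest of all 9. The difference of KI from WT was 0.20 (SE 0.97, adjusted p = 0.870) and that of KI_Chd7del from KI 1.01 (SE 0.97, adjusted p = 0.428). Ifit3b had 25, 58 and 58 in the WT libraries, 27, 25 and 14 in the KI libraries, and 14, 155 and 364 in the KI_Chd7del libraries. Library 1 of KI_Chd7del was level with the lowest KI library for Ifit3b, and the other KI_Chd7del libraries were above all 6 libraries of WT and KI. KI differed from WT by -1.02 (SE 0.98, adjusted p = 0.398), and KI_Chd7del lay 2.10 above KI (SE 0.98, adjusted p = 0.117). Ifit1 (34640871 to 34650009) had 91, 161 and 126 in the WT libraries, 231, 274 and 172 in the KI libraries, and 76, 442 and 1007 in the KI_Chd7del libraries, with all KI above all WT libraries. Ifit2 ran from 1581 to 1769 in WT libraries, 1075 to 1551 in KI libraries and 1116 to 2243 in KI_Chd7del libraries, so that KI lay below WT there.

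Oas1a had 802, 1076 and 1042 in the WT libraries, 1011, 1030 and 807 in the KI libraries, and 599, 1309 and 2236 in the KI_Chd7del libraries. WT and KI covered nearly the same range (log2 difference -0.03, SE 0.39, adjusted p = 0.948), and KI_Chd7del enclosed it (0.35 against KI, SE 0.39, adjusted p = 0.491). Oas1g had 88, 156 and 179 in the WT libraries, 78, 85 and 31 in the KI libraries, and 22, 202 and 380 in the KI_Chd7del libraries. The KI libraries of Oas1g lay below the WT libraries, with a difference of -1.18 (SE 0.90, adjusted p = 0.288), and the difference of KI_Chd7del from KI was 1.01 (SE 0.90, adjusted p = 0.397). Oas2 had 275, 788 and 558 in the WT libraries, 206, 507 and 130 in the KI libraries, and 153, 665 and 1419 in the KI_Chd7del libraries, so it also spread widely within WT and KI. Oas3 ranged from 1178 to 2668 in WT libraries, 1121 to 1676 in KI libraries and 580 to 3424 in KI_Chd7del libraries. The OAS-like genes differed from each other: Oasl1 was lower in all KI than in all WT libraries (146 to 218 against 324 to 418), and Oasl2 was higher (891 to 1734 against 389 to 823). In KI_Chd7del they ranged from 195 to 1079 and from 244 to 3066.

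With all libraries fitted, the last 4 genes passed in neither comparison. In KI against WT, Xaf1 passed without KI_Chd7del library 1 (adjusted p = 0.0476) or library 3 (0.0187), and Ifi27l2a without library 1 (0.0108). Rtp4 passed in KI_Chd7del against KI without library 1 (adjusted p = 0.0046). All of these were rises. Xaf1, whose product antagonises an inhibitor of apoptosis, ranged from 218 to 234 in WT libraries, 321 to 436 in KI libraries and 218 to 799 in KI_Chd7del libraries. Ifi27l2a, a small mitochondrial or membrane protein gene, ranged from 235 to 391, from 538 to 931 and from 254 to 1912. Rtp4, which encodes a chaperone of G protein-coupled receptors, ranged from 193 to 313, from 108 to 227 and from 115 to 1184. Ifi35 was the steadiest of the 34 within KI_Chd7del, with 780 to 1045 there, 754 to 848 in WT and 854 to 927 in KI.

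**Figure D3:**
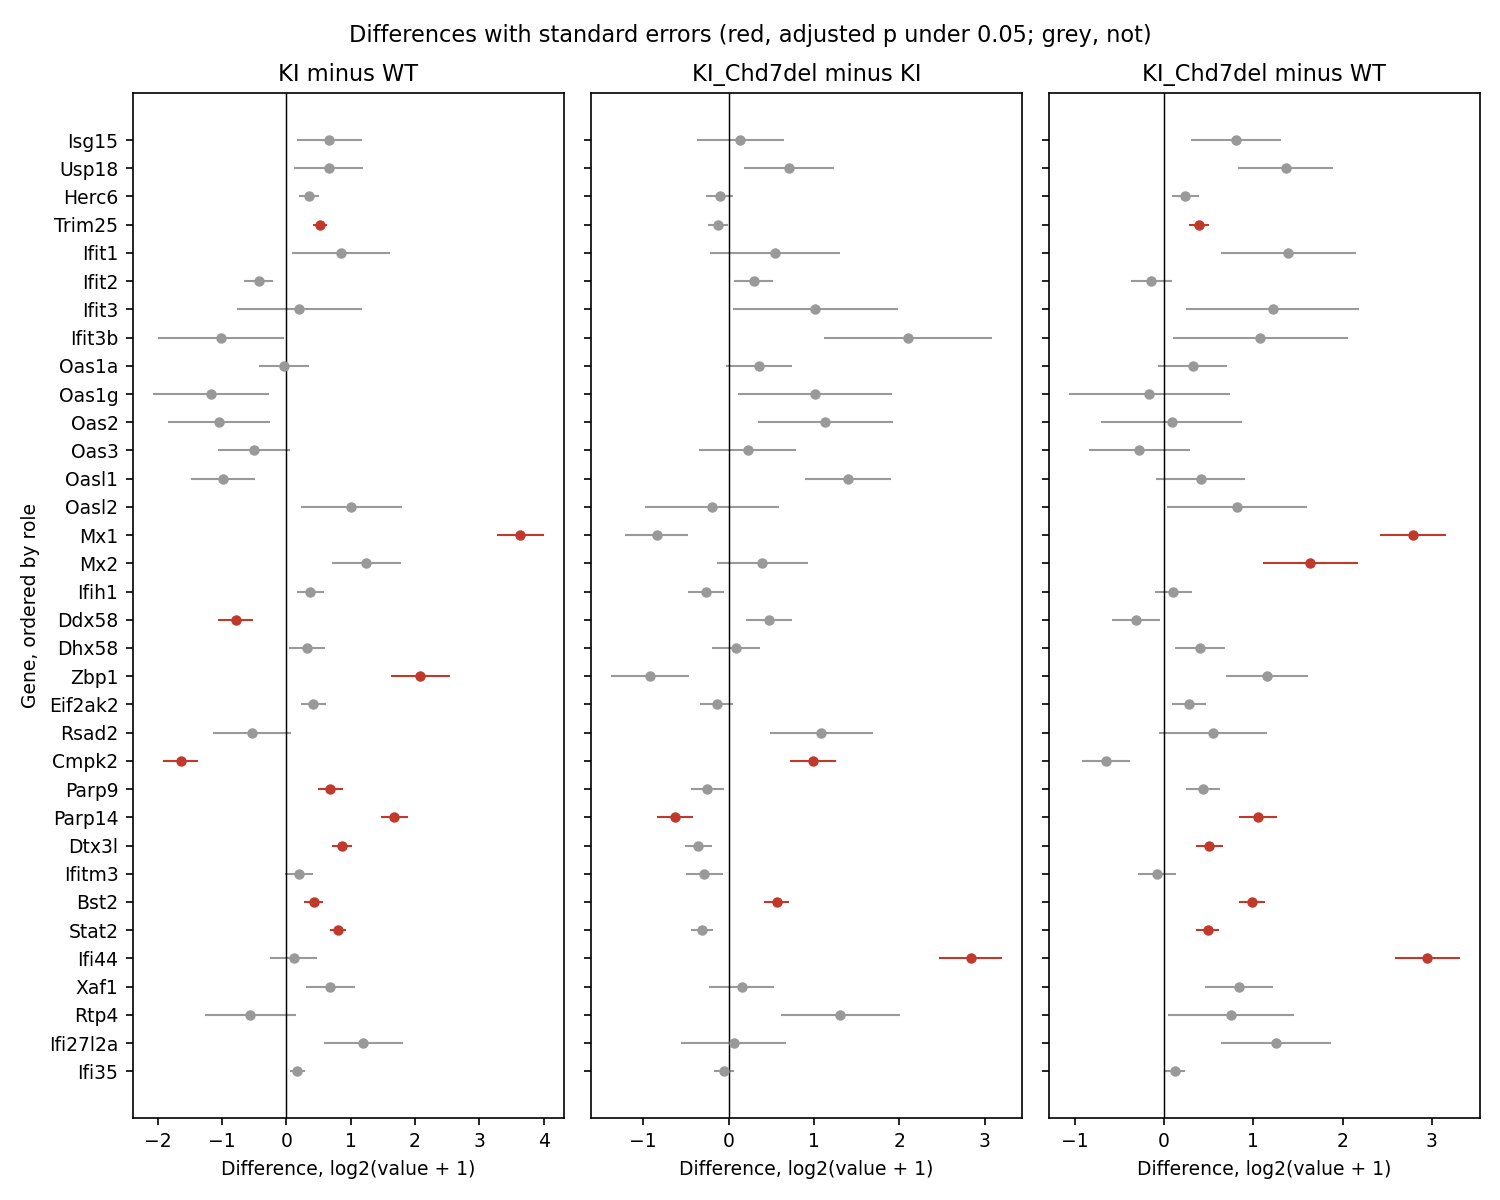
Log2 differences with standard errors for the 34 genes in the 3 comparisons, with genes past an adjusted p of 0.05 in red. The error bars of Oas1g, Ifit3 and Ifit3b (0.90 to 0.98) are wider than those of Trim25 and Ifi35 (0.11), and Mx1 at 3.64 and Ifi44 at 2.84 lie farthest from 0 in the first and second panels.

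The set spread more widely within groups than most genes did. The residual SD of the 34 genes on the log2 scale had a median of 0.549 (range 0.152 to 1.46), against a median of 0.156 over all tested genes; 33 of the 34 lay above that median and 22 above the upper quartile of the tested genes. The median ratio of the highest to the lowest library was 1.32 in WT, 1.45 in KI and 3.39 in KI_Chd7del for the 34, against 1.17, 1.19 and 1.21 for all tested genes. A span of at least 2-fold was seen in 6 of the 34 in WT (9.10% of tested genes), 5 in KI (10.8%) and 23 in KI_Chd7del (12.2%). The width differed between the gene families. In KI_Chd7del the 6 OAS genes spanned 3.73-fold to 16.6-fold and the 4 IFIT genes 2.01-fold to 25.03-fold, while the 3 PARP and DTX3L genes spanned 1.62-fold to 1.96-fold and Stat2 1.38-fold. Without KI_Chd7del library 3 the median residual SD was 0.330.

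**Figure D4:**
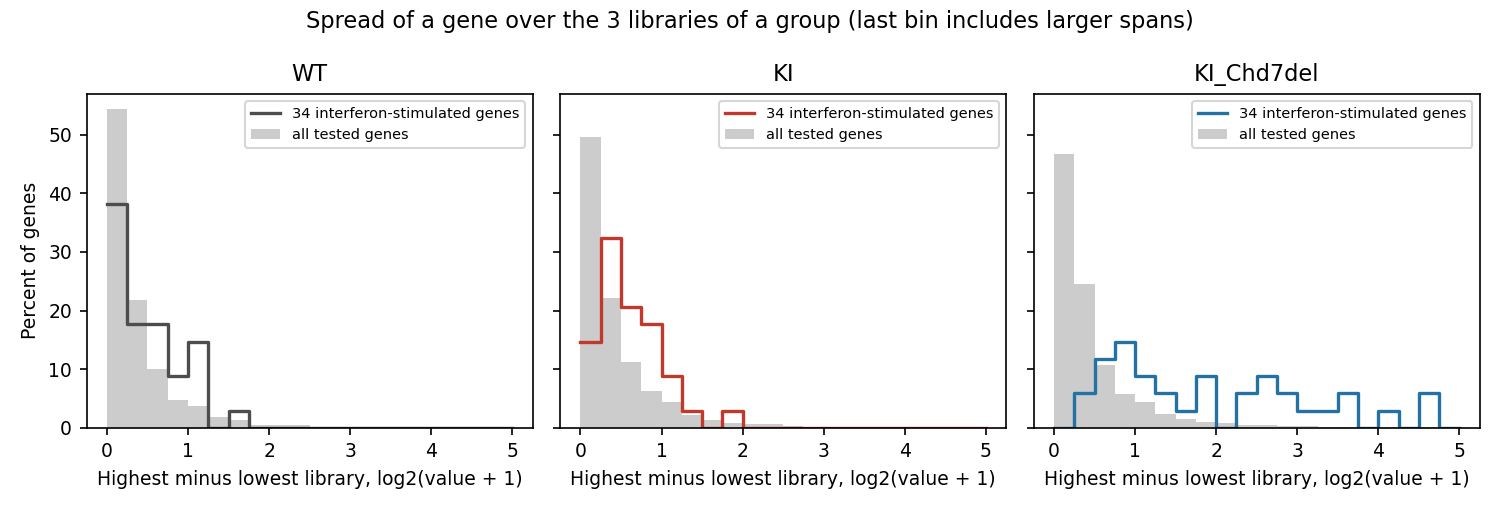
Distribution of the difference between the highest and the lowest library of a group on the log2(value + 1) scale, for all tested genes (grey) and the 34 genes (line), as percent of genes in each bin. The line departs from the grey bars most in KI_Chd7del, where 23 of the 34 lie at 1 or above.

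Only in KI_Chd7del did the libraries keep the same order in every gene. In KI_Chd7del the order library 3, library 2, library 1, from high to low, held in 34 of the 34 genes, and in 17.8% of all tested genes. In KI, library 2 was the highest in 29 of the 34 (36.6% of tested genes) and library 3 the lowest in 29 (31.1%). The full order library 2, library 1, library 3, from high to low, held in 24 of the 34 in KI (18.8% of tested genes). In WT, library 1 was the lowest in 24 (36.4%) and library 2 the highest in 21 (30.6%). Of all 9 libraries, KI_Chd7del library 3 was the highest in 27 of the 34 (8.64% of tested genes) and KI_Chd7del library 1 the lowest in 11 (9.91%). Replicate numbers have no order, and the 34 genes are not independent replicates of a library.

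Set against the 3 KI libraries, the KI_Chd7del libraries fell on different sides. Library 1 was below all 3 KI libraries in 24 of the 34 genes and above them in 3. Library 2 was below in 11 and above in 17, and library 3 below in 1 and above in 28. The median log2 difference of the 34 from the mean of KI was -0.63 for library 1, 0.32 for library 2 and 1.20 for library 3, while over all tested genes it was -0.02, -0.02 and 0.00098. The mean level of the set, as log2(value + 1) less the mean of each gene, was -0.57, -0.16 and -0.25 in WT libraries, 0.01, 0.25 and -0.32 in KI libraries, and -0.69, 0.44 and 1.28 in KI_Chd7del. The KI_Chd7del libraries thus held the lowest and the 2 highest levels of the 9.

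The count of called genes in KI_Chd7del against KI turned on single libraries. Without library 1, 14 of the 34 were higher (41.2%, against 17.4% of tested genes) and 0 lower (against 22.8%). Ifit3 was then higher by 2.37 (adjusted p = 0.00387), Ifit3b by 3.43 (adjusted p = 0.00166), Oas1g by 2.21 (adjusted p = 0.0103) and Usp18 by 1.36 (adjusted p = 0.0212). Without library 3, 3 were higher (8.82%, against 12.7%) and 9 lower (26.5%, against 19.3%), and the median of the 34 turned to -0.26. Zbp1 was then lower by -1.37 (adjusted p = 0.0368) and Mx1 by -1.28, beside Stat2, Herc6, Trim25, Ifih1, Parp9, Parp14 and Dtx3l. Without library 2, 3 were higher and 0 lower (8.82% called, against 32%). Ifi44 and Bst2 passed in this comparison with each library left out in turn.

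**Figure D5:**
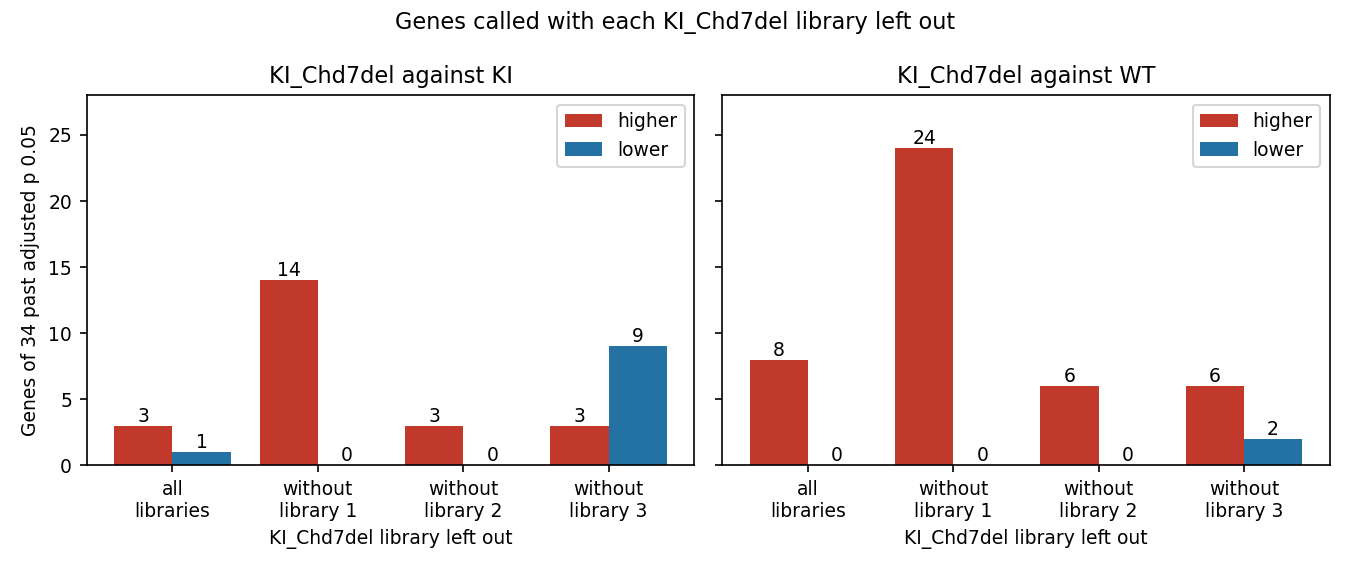
Number of the 34 genes past an adjusted p of 0.05, higher (red) and lower (blue), with all libraries and with each KI_Chd7del library left out. Against KI the counts move from 3 and 1 to 14 and 0 without library 1, and to 3 and 9 without library 3; against WT they move from 8 and 0 to 24 and 0, and to 6 and 2.

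KI_Chd7del against WT, which shares its libraries with the other comparisons, called 8 of the 34 higher and 0 lower (23.5%), where 48.4% of tested genes were called (24% higher and 24.3% lower). At an unadjusted p under 0.05, 12 passed (35.3%, against 55.4% of tested genes). The 8 were Ifi44 (log2 difference 2.95), Mx1 (2.79), Mx2 (1.64), Parp14 (1.06), Bst2 (0.99), Dtx3l (0.51), Stat2 (0.49) and Trim25 (0.40), with SEs from 0.11 for Trim25 to 0.53 for Mx2. For each of them all KI_Chd7del libraries lay above all WT libraries, and no other member was free of overlap; 57.6% of tested genes were. All of the 8 but Ifi44 and Mx2 had also risen in KI against WT. Without KI_Chd7del library 1, 24 of the 34 were higher than WT and 0 lower (70.6%, against 24.1% and 24% of tested genes). Without library 3, 6 were higher and 2 lower (23.5% called, against 42.6%). Without library 3, Mx2 no longer passed (1.01, adjusted p = 0.0681), nor did Dtx3l (0.34, adjusted p = 0.0582), and Trim25 stood at 0.26 (adjusted p = 0.0313). Mx2 did not pass without WT library 1 or 2 or KI_Chd7del library 2 either (adjusted p = 0.0525 to 0.104), nor Dtx3l without WT library 1 or 3 or KI_Chd7del library 2 (0.0583 to 0.0677), nor Trim25 without WT library 3 (0.0521).

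The interferon genes themselves gave almost no reads. Of 20 ligand genes, 16 were at 0 in all 9 libraries, and Ifng alone passed the filter. Ifng, the type II interferon of T and NK cells, had 9, 12 and 5 in the WT libraries, 14, 52 and 19 in the KI libraries, and 2, 7 and 17 in the KI_Chd7del libraries, and passed in no comparison. All 6 receptor genes were measured. Ifnar1 ranged from 2135 to 2571 in WT libraries, 2819 to 3094 in KI libraries and 2388 to 2559 in KI_Chd7del libraries, higher in KI than in WT by 0.32 (adjusted p = 0.00405) and lower in KI_Chd7del than in KI by -0.27 (adjusted p = 0.0172). The fall of Ifnar1 did not pass without KI library 1 (adjusted p = 0.0627) or KI_Chd7del library 2 (0.0538). Ifnar2 differed little, with 2186 to 2660 over all libraries, and was lower only in KI_Chd7del against WT (-0.20, adjusted p = 0.00745). Ifnlr1, a receptor chain for type III interferons, had 1343, 1950 and 1581 in the WT libraries, 213, 455 and 102 in the KI libraries, and 912, 497 and 670 in the KI_Chd7del libraries. It fell in KI against WT by 2.90 on the log2 scale (adjusted p = 0.000522) and rose in KI_Chd7del against KI by 1.64 (adjusted p = 0.0201), a rise that did not pass without KI library 1 (adjusted p = 0.0544) or KI_Chd7del library 1 (0.0595). The type II receptor genes Ifngr1 and Ifngr2 were lower in KI_Chd7del than in KI (-0.53 and -0.42), and Ifngr2 and Il10rb, which pairs with Ifnlr1, were lower in KI than in WT (-0.27 and -0.51). The call for Ifngr2 in KI against WT was lost when WT library 2 or 3, KI library 2 or 3, or KI_Chd7del library 3 was left out (adjusted p = 0.0553 to 0.121).

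Of the 11 kinases and transcription factors of the signal other than Stat2, 7 were higher and 1 lower in KI against WT, and 1 higher and 6 lower in KI_Chd7del against KI. Of all tested genes, 31.8% were higher and 27.2% lower in KI against WT, and 17.5% higher and 22.9% lower in KI_Chd7del against KI. Irf9, the gene of the DNA-binding part of ISGF3, had 1791, 2228 and 1792 in the WT libraries, 2633, 2913 and 2615 in the KI libraries, and 2177, 2227 and 3490 in the KI_Chd7del libraries, higher in KI than in WT by 0.50 (adjusted p = 0.0315), a call lost without WT library 1 or 3 or any single KI library (0.0567 to 0.0946). Irf7, the factor that amplifies interferon transcription, passed in no comparison and followed the pattern of the set within KI_Chd7del, with 639, 1983 and 4029, against 665 to 895 in WT and 760 to 1231 in KI. Irf5, a factor of myeloid cells, had 712 to 909 in WT libraries, 5779 to 6625 in KI libraries and 2153 to 2410 in KI_Chd7del libraries, a rise in KI of 2.90 (adjusted p = 1.2e-07) and a fall in KI_Chd7del against KI of -1.43 (adjusted p = 2.87e-05), with no widening within KI_Chd7del. Tyk2 rose in KI by 0.89 and was lower in KI_Chd7del than in KI by -0.53 (adjusted p = 1.33e-06 and 0.000138).

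Of 12 genes that sense nucleic acid or relay that signal upstream of interferon, 9 were higher and 1 lower in KI against WT, and 0 higher and 8 lower in KI_Chd7del against KI. Mavs, the adaptor of RIG-I and MDA5, ranged from 746 to 844 in WT libraries, 3707 to 4802 in KI libraries and 2559 to 3532 in KI_Chd7del libraries, a rise of 2.46 in KI against WT (adjusted p = 9.35e-07). Tmem173, the gene of STING, rose by 1.65 (adjusted p = 5.09e-07). Tlr8 was lower in KI_Chd7del than in KI by -2.25 and Myd88 by -0.58 (adjusted p = 3.03e-05 and 0.000157). Of 6 inhibitors of the signal, 3 were higher and 2 lower in KI against WT, and 0 higher and 4 lower in KI_Chd7del against KI. Over all 5 groups, 36 of the 55 pathway genes were tested. Of these, 20 were higher (55.6%, against 31.8% of all tested genes) and 7 lower (19.4%, against 27.2%) in KI against WT. In KI_Chd7del against KI, 2 were higher (5.56%, against 17.5%) and 21 lower (58.3%, against 22.9%), and in KI_Chd7del against WT 9 were higher and 11 lower (25% and 30.6%, against 24% and 24.3%). Some of these genes, such as Tlr8 and Irf5, are typical of myeloid cells, whose markers also differed between the groups.

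The markers of several cell types differed between the groups. For scale, 31.8% of all tested genes were higher and 27.2% lower in KI against WT. In KI_Chd7del against KI these shares were 17.5% and 22.9%. Mast cells carry c-KIT, whereas late neutrophils, mature T cells and resident macrophages are not selected by it, and their markers were measured in all libraries. The summed value of 10 mast cell and basophil markers was 12708 to 14864 in WT libraries, 98543 to 156997 in KI libraries and 43711 to 61742 in KI_Chd7del libraries, with 8 higher and 2 lower in KI against WT and 2 higher and 6 lower in KI_Chd7del against KI. The summed value of 10 late neutrophil markers was 4345399 to 5421180 in WT libraries, 155099 to 721234 in KI libraries and 1306000 to 1691990 in KI_Chd7del libraries, with 10 of 10 genes lower in KI against WT and 10 of 10 higher in KI_Chd7del against KI. That of 10 monocyte markers was 61598 to 67995, 301476 to 329511 and 135085 to 153526, with 8 higher and 1 lower in KI against WT and 1 higher and 8 lower in KI_Chd7del against KI. In these bulk samples fewer cells of a type and less RNA per cell cannot be told apart. Resident macrophage markers summed to 20083 to 25801 in WT libraries, 25735 to 40442 in KI libraries and 18403 to 20121 in KI_Chd7del libraries, with 9 of 10 higher in KI against WT and 9 of 10 lower in KI_Chd7del against KI. Within KI, all 10 late neutrophil markers were highest in library 2 and lowest in library 3, as were most of the interferon-stimulated genes; their sums in libraries 1 to 3 were 362510, 721234 and 155099. All 10 T and NK cell markers were highest in KI library 2 as well, but 8 of them were lowest in library 1. Within WT, all 10 late neutrophil markers were lowest in library 1, as were 24 of the 34 interferon-stimulated genes. Of these markers, 6 were highest in WT library 2 and 4 in library 3, against 21 and 8 of the 34 genes. Of the T and NK cell markers, 8 were highest in WT library 2 and 5 lowest in library 1. Within KI_Chd7del, the stem and progenitor markers summed to 18077, 22915 and 24378 in libraries 1 to 3, and the T and NK cell markers to 4536, 6073 and 6333, the same order as the interferon-stimulated genes. Plasmacytoid dendritic cell markers, Bst2 among them, summed to 7046, 5964 and 8236, B cell markers to 14880, 11991 and 22631, and late neutrophil markers to 1691990, 1306000 and 1317359, in another order. Erythroid markers summed to 28919, 25934 and 22841, the reverse order. The sums of the monocyte, resident macrophage, mast cell and basophil, and megakaryocyte markers were each highest in library 2. By gene, library 2 was the highest for 3 of 10 monocyte, 3 of 10 resident macrophage and 6 of 10 mast cell and basophil markers. Of the 10 megakaryocyte markers, library 2 was the highest for 2 and library 3 for 7, and library 1 was the lowest for 8. No marker of these lists was at 0 in all libraries. The part of the cell mix in the differences of the interferon-stimulated genes was not tested.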

How the data were processed

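The deposited table holds whole numbers per Ensembl gene and library. Their unit is a score: the deposited values have gaps or doublings at regular places among low numbers (no gene at 3, 10 or 17 in WT library 3), as read numbers divided by a factor per library and rounded would have; how the authors scaled them is not given in the sources used here. The submitters' processing notes name GRCm38 and the tools RSEM, DESeq2, STAR 2.4 and CASAVA 1.8.2, and the annotation release is not given in the sources used here. No count test was therefore run, although one was planned for raw counts. Symbols and positions came from GENCODE M21, and promoter sequences from RefSeq.

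Log2(value + 1) was fitted with limma 3.58.1 (R 4.3.3, mean-variance trend) over 3 groups and 9 libraries with no replicate block, for 15997 genes. P-values are two-sided and adjusted by Benjamini-Hochberg over all of these. On simulated data, 62% of 200 genes changed by a log2 of 1 in KI against WT were recovered among 15819 genes. There were 9 false calls. At a log2 of 2, 82.1% of 196 genes were recovered, with 6 false calls. In the data, 58.9% of tested genes were called in KI against WT, a larger share than was changed in the simulation. The median SE was 0.37 for the interferon-stimulated genes and 0.13 over all tested genes. The simulated percentages therefore do not show what share of true changes passed in the data, or among the interferon-stimulated genes. Changes of low genes are understated by the pseudocount of 1. Genes that passed in KI against WT or KI_Chd7del against KI, and Mx1, Mx2, Stat2, Isg15, Usp18, Ifit3, Ifit3b, Oas1a and Oas1g, are given in every library, as are some others for their spread. Named pathway genes are tested ligands and receptors, Irf7, Irf9 and some of the 4 others with the smallest adjusted p per comparison; 1 further gene of that rule is not reported here. The members and lists were chosen with earlier results of these data known. Alternatives were other pseudocounts, filters, scalings and models and each library left out. Python 3.11.15 was used with pandas 2.3.3.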

Additional observations from a re-analysis of the deposited data

How the results depend on the processing

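In all, 24 alternatives were run, of which robust limma and sample weights were chosen after seeing the data. Of the called members, 8 of 10 passed in every alternative in KI against WT, 2 of 4 in KI_Chd7del against KI and 5 of 8 in KI_Chd7del against WT. The sign turned in at least 1 alternative for 3, 13 and 11 members, none of them called. Where no cause is named it was not tested. In KI against WT the count of members called higher was 13 with equal column totals and 19 with only the groups compared (fewer samples), and 7 to 13 with single libraries left out; lower, it was 1 with equal totals, 1 without the trend, 4 with only the groups compared, 5 with sample weights, and 1 to 4 with single libraries left out. Oas1a turned to 0.20 with equal totals (-0.17 to 0.080 with libraries left out), and Ifit3 to -0.075 with quantile normalisation and -0.022 with sample weights (-0.068 to 0.51). In KI_Chd7del against KI, sample weights called 13 higher, and libraries left out gave 2 to 14 higher and 0 to 9 lower, with a median of -0.26 to 0.77. Lower, 0 were called without a filter, with upper-quartile factors, quantile normalisation, no trend, only the groups compared, robust limma or sample weights. With libraries left out Isg15 ran from -0.50 to 0.78, Oas1a from -0.092 to 0.86 and Mx2 from -0.23 to 0.96. In KI_Chd7del against WT, 15 were higher with equal totals and 18 with sample weights, and 6 to 24 higher and 0 to 2 lower with libraries left out.

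Of pathway genes, 3 were lower in KI against WT with equal totals; in KI_Chd7del against KI, 4 were higher with upper-quartile factors, 5 with quantile normalisation and 1 to 3 with libraries left out; in KI_Chd7del against WT, 19 were higher and 4 lower with equal totals, 7 lower with quantile normalisation and 7 to 11 with libraries left out. Ifnar2 turned to 0.049 there with equal totals. The median of all tested genes moved to 0.25 and 0.26 against WT with equal totals. In KI_Chd7del against KI, 2803 of 6464 calls were higher as deposited, 3920 of 6826 with upper-quartile factors and 3973 of 6966 with quantile normalisation; against WT, 3842 of 7735, and 7004 of 8896 with equal totals. The median residual SD was 0.251 with only WT and KI, and 0.330 to 0.599 with libraries left out. The longer promoter motif gave 8 genes in place of 14.

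Same-numbered libraries correlated at -0.153 to 0.109 in their deviations from the group means, and differently numbered ones at -0.167 to 0.208. With 3 libraries in a group these correlations cannot decide whether the numbers pair the samples. A replicate block gave 2 members lower in KI_Chd7del against KI, with Mx1 at -0.84 (adjusted p = 0.0496). EdgeR, which was planned for raw counts, was not run on these scaled values, and neither was DESeq2. The depth behind a value is not known exactly, and values under 10 rest on few reads.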
